A study of Arabidopsis thaliana with 4 samples.

Results

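Cytochrome P450 (CYP) and UDP-dependent glycosyltransferase (UGT) genes were followed in 3-week-old Arabidopsis thaliana plants of an albino mutant line. A gene was taken where a probe set was annotated to it alone and its symbol was CYP or UGT followed by a digit. Of 13513 probe sets annotated to 1 gene, 73 met this rule, each for a different gene. They were 24 P450 genes, 47 UGT genes and 2 genes, CYP59 and CYP71, whose records give them as cyclophilins. Those 2 share only the letters of the name with the P450s and are kept apart below. The TAIR10.1 gene records hold 241 genes with a CYP symbol, cyclophilins among them, and 58 with a UGT symbol. The P450s followed here are thus a small part of their family. UGT75C1, the anthocyanin 5-O-glucosyltransferase, is not analysed here, because no probe set carried that symbol.

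The albino plants were pale segregants of line DS 13-2198-1, and the control plants were segregants of normal appearance from the same parental line, which the design text calls heterotalic. Both kinds shared a plate of diluted Murashige and Skoog salts to which 2% sucrose was added, at 23 °C with 16 h of light and 8 h of dark. Each group had 2 arrays, numbered 1 and 2. The labels name no disrupted gene or allele, so no targeted transcript could check the titles. They do not say whether normal segregants carried 1 mutant copy or none, which organs were taken or how many plants were pooled, and their free text calls all 4 samples wild type.

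P450s are haem enzymes, mostly bound to the endoplasmic reticulum, that insert oxygen into small molecules. UGTs move a sugar from a UDP-sugar onto such molecules, which often makes them more soluble, less reactive or fit for storage in the vacuole. In plants both families build and dispose of hormones, glucosinolates, phenylpropanoids, flavonoids and foreign compounds. CYP71B, the subfamily with most P450 members here, lies largely in tandem runs of related genes, and few of its members have a known substrate.

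Values are log2 signals of a probe set, and a difference is albino minus control on that scale. The signals carry no detection call, so a dim gene may be near background. Value distributions matched within the arrays of number 1 and within those of number 2 (largest quantile gap 0.0702 and 0.0850) but not across numbers (up to 0.355). The albino-minus-control difference within each number is therefore given beside the mean difference of the genes whose 4 array values are printed. Differences were wider over all probe sets in number 1 (SD 0.598) than in number 2 (SD 0.364). Standard errors (SE) come from the limma fit to all 22746 probe sets. Both arrays of each group are printed for the main genes in place of an SD.

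No P450 or UGT gene passed limma's test after Benjamini-Hochberg adjustment over all 22746 probe sets, and neither did any other probe set (0% called). The smallest adjusted p among members was 0.645, for UGT87A2. A block on replicate number also gave a count of 0 (0% of all probe sets), with a smallest limma adjusted p of 0.217. The values below are thus differences with their errors. At an unadjusted limma p under 0.05, 5 of 47 UGTs were lower in albino and 0 higher, against 3.08% and 2.68% of all probe sets (5.76% in either direction). The P450s had 2 lower and 2 higher of 24. With the block these counts were 11 lower and 5 higher for the UGTs, against 7.53% and 7.17% of all probe sets (14.7% in either direction), and 2 lower and 4 higher for the P450s. An exact permutation test of 2 arrays against 2 cannot give a two-sided p below 0.333 for any gene.

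The medians of the 2 families had opposite signs, and their size depended on single arrays. The UGTs had a median difference of -0.09 (-0.14 in number 1 and -0.02 in number 2), against 0.02 over all probe sets. Of 47 UGTs, 21 (44.7%) were lower in both numbers, against 28.5% of all probe sets, and 12 (25.5%) were higher in both, against 34.6%. The P450s had a median difference of 0.14 (0.06 in number 1 and 0.19 in number 2). Without albino replicate 2 or control replicate 1 the UGT median was -0.0068 or -0.017, and without albino replicate 1 or control replicate 2 it was -0.16 or -0.17. The P450 median was 0.055 without albino replicate 1, 0.022 without control replicate 2 and 0.23 without control replicate 1. Of 24 P450s, 12 were higher in both numbers and 3 lower. Differences ran from -1.35 for UGT87A2 to 0.63 for UGT76C2 among UGTs, and from -0.79 for CYP71B23 to 0.86 for CYP71B22 among P450s. These shares and medians describe the measured members, not the whole families, and were not tested. Of the 24 P450s, 19 belong to CYP71B. In a fit without 1 array, any gap between the numbers also enters the difference.

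Groups that did not overlap leaned the same way on the deposited scale. In both families the lean was smaller after quantile normalization or cyclic loess. Both albino arrays lay below both control arrays for 13 UGTs (27.7%), against 13.6% of all probe sets, and above them for 7 UGTs (14.9%), against 16.2%. After quantile normalization of all 4 arrays 9 UGTs lay below, against 17.1% of all probe sets, and after cyclic loess again 9, against 17.9%. Over all probe sets 29.8% did not overlap in either direction. Among P450s, 7 lay above and 2 below. At least 2-fold in both numbers, 2 UGTs were lower (UGT87A2 and UGT85A2) and 0 higher, and no P450 was either, while 0.963% of all probe sets were 2-fold lower in both and 0.813% 2-fold higher. UGT84A3 was just short of it, at -1.60 and -0.99. Taken alone, number 1 had 5 UGTs and 1 P450 at least 2-fold lower and 0 higher, against 4.15% and 3.47% of all probe sets. Number 2 had 3 UGTs lower, no P450 and 0 higher, against 1.31% and 1.06%.

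**Figure D1:**
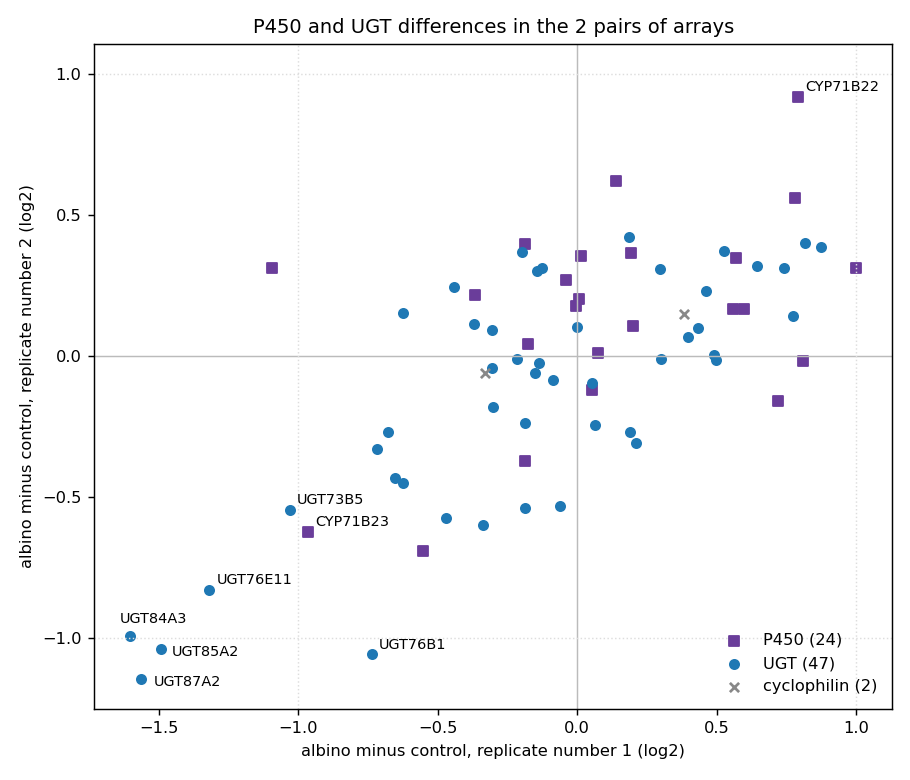
Difference of each gene (albino minus control, log2) in replicate number 1 on the horizontal axis and in number 2 on the vertical axis. Squares are the 24 P450s, circles the 47 UGTs and crosses the 2 cyclophilins, and dotted lines mark 2-fold. UGT84A3, UGT87A2 and UGT85A2 lie farthest to the left, UGT87A2 lies lowest, CYP71B22 lies highest and CYP71B26 farthest to the right.

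The signal of UGT87A2, a glycosyltransferase known to affect flowering time, was 7.91 and 8.23 in the albino arrays and 9.47 and 9.37 in the control arrays. Both albino arrays lay more than 1 log2 unit below both controls. The difference was -1.35 (SE 0.27), or 0.392-fold, with -1.56 in number 1 and -1.14 in number 2 (limma adjusted p = 0.645, block 0.217).

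UGT84A3 joins glucose to sinapate and other hydroxycinnamates, precursors of the leaf sunscreen sinapoyl malate. Its signal was 7.98 and 8.64 in albino and 9.58 and 9.63 in control. The control arrays nearly coincided and the albino arrays lay apart, both below. The difference was -1.30 (SE 0.32), 0.407-fold, with -1.60 in number 1 and -0.99 in number 2 (limma adjusted p = 0.705, block 0.217). The other 2 measured genes of its subfamily, which act on the same kind of substrate, had smaller differences, and the gap between genes was not tested. UGT84A1 read 5.48 and 3.98 in albino and 5.29 and 3.56 in control, a difference of 0.30 (SE 0.72; 0.19 in number 1 and 0.42 in number 2) that was small beside the gap between numbers. UGT84A4 differed by -0.04 (SE 0.28), with opposite signs in the numbers. The 3 genes are neighbours on chromosome 4 with UGT84A3 in the middle.

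UGT85A2 had signals of 6.33 and 5.85 in albino and 7.82 and 6.89 in control. Number 1 was higher than number 2 in both groups, and the albino array was the lower one within each. The difference was -1.26 (SE 0.40), 0.416-fold, with -1.49 in number 1 and -1.04 in number 2 (limma adjusted p = 0.750, block 0.217). It sits in a run of UGT85A genes on chromosome 1, where the nearest measured genes were also lower in both numbers. UGT85A5 differed by -0.52 (SE 0.27), its groups not overlapping, and UGT85A7 by -0.36 (SE 0.34), its groups overlapping. UGT85A3, at the end of the run, differed by 0.09 (SE 0.34), and UGT85A4, elsewhere on the chromosome, by 0.35 (SE 0.29).

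UGT76E11 read 5.74 and 5.98 in albino and 7.06 and 6.81 in control. Its groups were well apart relative to the spread within each, with a difference of -1.07 (SE 0.27), 0.475-fold, and -1.32 in number 1 and -0.83 in number 2 (limma adjusted p = 0.721, block 0.217). Its neighbour UGT76E12 differed by -0.05 (SE 0.30). UGT76E1 and UGT76E2, on chromosome 5, differed by 0.24 (SE 0.84) and 0.09 (SE 0.57), and both were far higher in number 1 than in number 2 in albino and control alike.

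UGT76B1 glucosylates isoleucic acid and salicylate and acts between the salicylate and jasmonate responses. Its signal was 4.59 and 4.57 in albino and 5.32 and 5.63 in control, with both albino arrays below. The difference was -0.90 (SE 0.26; limma adjusted p = 0.744, block 0.217), and it was larger in number 2 (-1.06) than in number 1 (-0.74). The salicylate glucosyltransferase UGT74F1 went the other way. It read 5.01 and 4.67 in albino and 4.24 and 4.53 in control, a difference of 0.46 (SE 0.28) that was mostly that of number 1 (0.77, against 0.14 in number 2). UGT76D1 differed by -0.02 (SE 0.25).

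**Figure D2:**
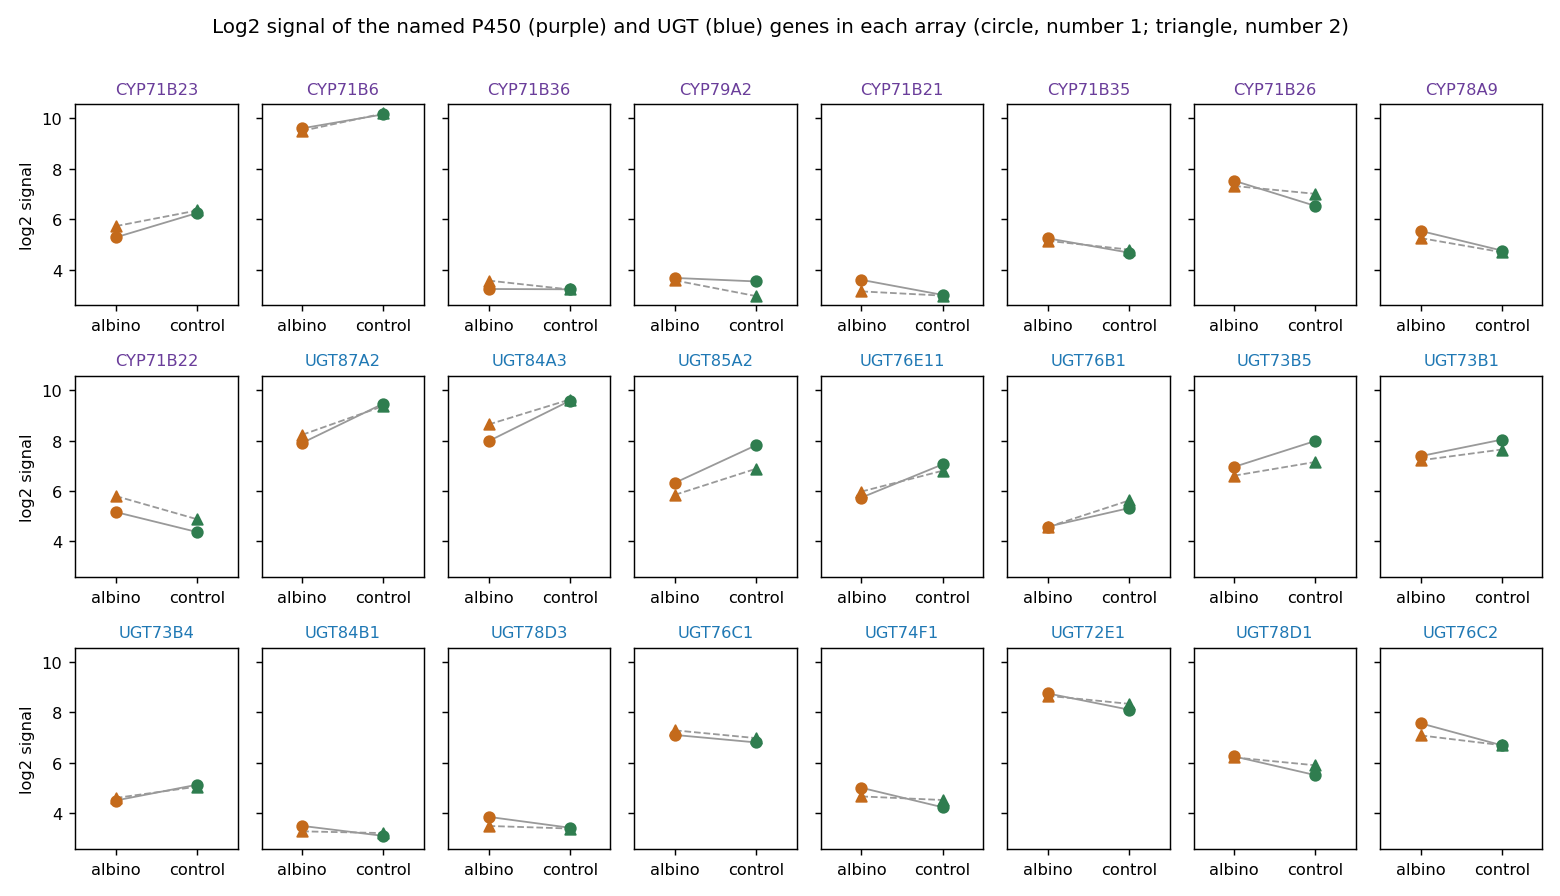
Log2 signal (vertical axes, shared) in each array for the P450 and UGT genes with the largest differences among those whose groups did not overlap. In each panel the albino arrays are on the left and the control arrays on the right, lines join arrays of one replicate number, and panels run from lower to higher in albino, P450s first. By mean difference UGT87A2 and UGT84A3 show the steepest climbs to control, and no panel of a higher gene is as steep. Among the P450s the steepest panel is that of a higher gene, CYP71B22.

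UGT73B, a subfamily whose members respond to pathogens, redox stress and foreign compounds, was lower in albino throughout. All 3 measured genes had groups that did not overlap and a lower value in both numbers. Over all probe sets 13.6% had both albino arrays below both controls, and 28.5% were lower in both numbers. UGT73B5, needed for full resistance to a bacterial pathogen, read 6.96 and 6.61 in albino and 7.99 and 7.16 in control. Its difference was -0.79 (SE 0.36; limma adjusted p = 0.955, block 0.239), with -1.03 in number 1 and -0.54 in number 2. The difference of its neighbour UGT73B4, which also glucosylates trinitrotoluene breakdown products, was -0.54 (SE 0.25), with -0.63 and -0.45 in the numbers. UGT73B1 differed by -0.54 (SE 0.28), with -0.65 and -0.43. A probe set annotated to both UGT73B2 and UGT73B3, which the rule leaves out, read 6.09 and 7.82 in albino and 8.86 and 8.91 in control. Its difference of -1.93 (SE 0.57) was larger than that of any member, and much larger in number 1 (-2.77) than in number 2 (-1.09; limma adjusted p = 0.750, block 0.232).

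UGT71B also had no member higher in both numbers, against 34.6% of all probe sets. Its 4 genes had a median of -0.38, from -0.52 (SE 0.29) for UGT71B5 to -0.13 (SE 0.32) for UGT71B8, and the groups of UGT71B5 and UGT71B1 did not overlap. UGT71B6, an abscisic acid glucosyltransferase, differed by -0.30 (SE 0.31), and UGT71C5, with the same substrate, by -0.08 (SE 0.34). The 5 UGT71C genes lay between -0.23 for UGT71C2 and 0.15 for UGT71C3, with UGT71C5 lower in both numbers. UGT71C2, UGT71C3 and UGT71C4 had opposite signs, and UGT71C1 had the same value in both arrays of number 1. UGT73C had no common direction. UGT73C7 differed by -0.47 (SE 0.42), UGT73C1 by -0.09 (SE 0.25) and UGT73C2 by 0.61 (SE 0.51), with UGT73C2 much brighter in number 1.

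Among other subfamilies, higher values stood in UGT76C and in most genes of UGT78D and UGT72E. UGT78D2 and UGT72E2 had negative differences. The dim genes of UGT84B, given further below, also had positive differences. UGT76C1 and UGT76C2 attach glucose to the ring nitrogens of cytokinins. UGT76C2 read 7.57 and 7.09 in albino and 6.70 and 6.70 in control. Both albino arrays were above, and the difference of 0.63 (SE 0.28) was 0.87 in number 1 and 0.39 in number 2 (limma adjusted p = 0.944, block 0.295). UGT76C1, its neighbour, differed by 0.30 (SE 0.26), with 0.30 and 0.31 in the numbers. UGT78D genes glycosylate flavonols and anthocyanidins. The flavonol rhamnosyltransferase UGT78D1 read 6.26 and 6.22 in albino and 5.51 and 5.90 in control, a difference of 0.53 (SE 0.27) that was 0.74 in number 1 and 0.31 in number 2, and the arabinosyltransferase UGT78D3, a dim gene, differed by 0.27 (SE 0.27). The glucosyltransferase UGT78D2 differed by -0.11 (SE 0.37). Of the monolignol glucosyltransferases, UGT72E1 read 8.76 and 8.66 in albino and 8.11 and 8.34 in control. Its difference was 0.48 (SE 0.26), with 0.64 in number 1 and 0.32 in number 2, and UGT72E3 and UGT72E2 differed by 0.25 (SE 0.32) and -0.11 (SE 0.27).

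Other UGTs stand alone in their subfamily or nearly so. UGT74B1, which adds the glucose of glucosinolates, differed by -0.24 (SE 0.25). UGT88A1 differed by -0.11 (SE 0.25). The auxin glucosyltransferases UGT74D1 and UGT84B1 differed by -0.17 (SE 0.33) and 0.23 (SE 0.26), and UGT84B2, next to UGT84B1, by 0.08 (SE 0.29). UGT80B1, which glucosylates sterols, differed by 0.45 (SE 0.37) and was higher in both numbers. UGT73D1 and UGT72B3 differed by -0.21 (SE 0.28) and -0.09 (SE 0.36). Sterol glucosylation has a second gene, recorded as SGT with the alias UGT80A2, which differed by 0.50 (SE 0.32). Among 3 other genes recorded under a UGT alias, GT72B1 (UGT72B1), which conjugates foreign phenols, read 7.87 and 8.19 in albino and 9.14 and 8.89 in control. That difference was -0.98 (SE 0.27; limma adjusted p = 0.744, block 0.220), with -1.27 in number 1 and -0.70 in number 2. UF3GT (UGT79B1) and AT5G54010 (UGT79B6) differed by -0.06 (SE 0.50) and -0.13 (SE 0.27).

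**Figure D3:**
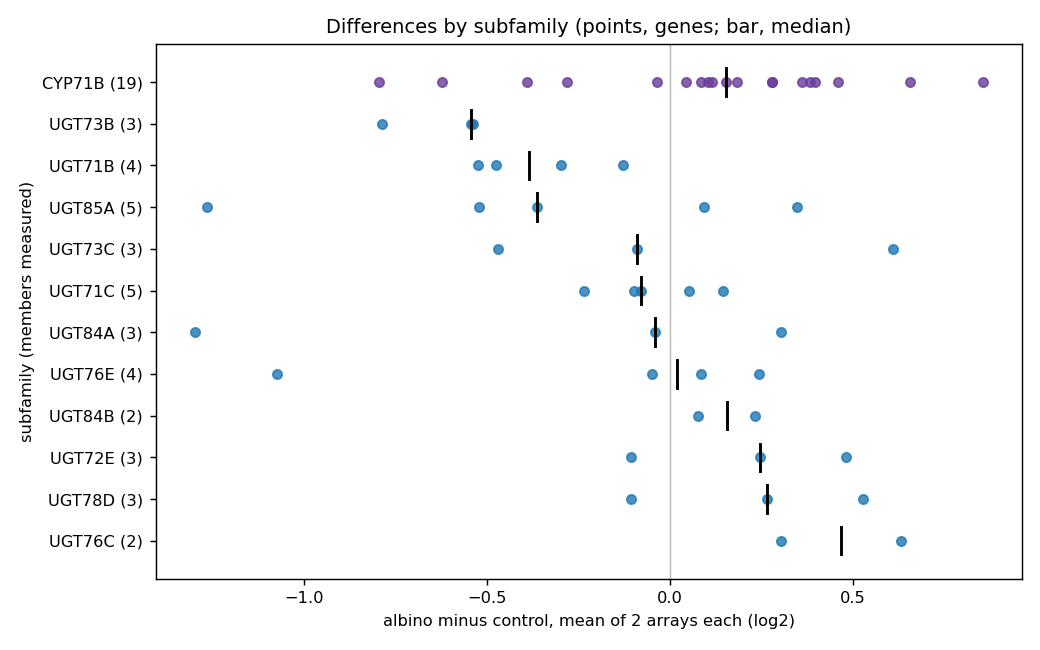
Difference of each gene (points, horizontal axis, albino minus control, log2) by subfamily (vertical axis, number of measured genes in brackets), for subfamilies with at least 2 genes. Black bars are medians. UGT73B and UGT71B lie wholly left of 0 and UGT76C and UGT84B wholly right of it. UGT84A, UGT76E and UGT85A each have 1 gene far to the left of the rest.

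CYP71B held 19 of the 24 P450s. Its median difference was 0.15 (0.07 in number 1 and 0.17 in number 2), with 10 genes higher in both numbers, 3 lower in both and 6 mixed. Over all probe sets 34.6% were higher and 28.5% lower in both numbers. CYP71B6 is an enzyme of indole metabolism that acts on indole-3-acetonitrile. It read 9.61 and 9.51 in albino and 10.16 and 10.20 in control. Arrays of a group differed by at most 0.10, and both albino arrays were below, with a difference of -0.62 (SE 0.25; -0.55 in number 1 and -0.69 in number 2; limma adjusted p = 0.862, block 0.238). CYP71B28 differed by 0.04 (SE 0.25).

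A run of CYP71B genes on chromosome 3, from CYP71B16 to CYP71B37, had 11 measured members. In it the adjacent genes CYP71B22 and CYP71B23 went opposite ways. The other directly adjacent measured pairs had positive differences in both genes. CYP71B22 had the highest difference of all members. It read 5.17 and 5.80 in albino and 4.37 and 4.88 in control, a difference of 0.86 (SE 0.34) that was 0.79 in number 1 and 0.92 in number 2 (limma adjusted p = 0.866, block 0.217). CYP71B23, the next gene, had the lowest difference of any P450. It read 5.28 and 5.73 in albino and 6.25 and 6.35 in control, a difference of -0.79 (SE 0.28), with -0.97 and -0.62 in the numbers (limma adjusted p = 0.795, block 0.222). The groups of neither gene overlapped. CYP71B24, next of the measured genes, differed by -0.28 (SE 0.34) and was lower in both numbers.

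The rest of the run was level or higher. CYP71B26 read 7.53 and 7.32 in albino and 6.53 and 7.01 in control, a difference of 0.66 (SE 0.29) with 1.00 in number 1 and 0.31 in number 2. CYP71B35 read 5.24 and 5.14 in albino and 4.67 and 4.79 in control, a difference of 0.46 (SE 0.25) with 0.57 in number 1 and 0.35 in number 2. CYP71B21 and CYP71B36, both dim, differed by 0.38 (SE 0.28) and 0.18 (SE 0.26), and in these 4 genes both albino arrays were above. CYP71B37 differed by 0.28 (SE 0.29), CYP71B34 by 0.28 (SE 0.31, opposite signs), CYP71B16 by 0.12 (SE 0.39) and CYP71B25 by 0.09 (SE 0.26). A probe set for CYP71B19 and CYP71B20 together, members of the same run left out by the rule, differed by -0.22 (SE 0.25) and its groups did not overlap. The run's genes are close relatives, and whether their probes also bound each other's transcripts was not tested.

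**Figure D4:**
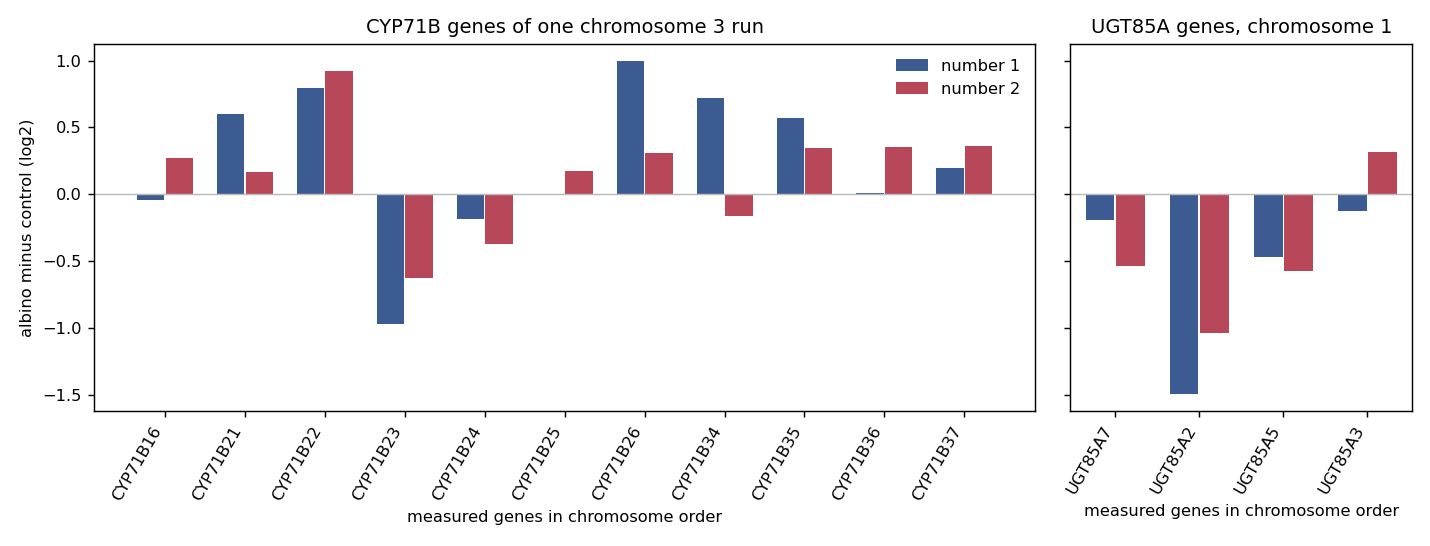
Bars give the difference (albino minus control, log2) in number 1 and number 2 for measured genes in their order along the chromosome, for the CYP71B run of chromosome 3 on the left and a UGT85A run of chromosome 1 on the right. CYP71B22 stands above 0.7 in both numbers beside CYP71B23 below -0.6, and UGT85A2 reaches below -1 between 2 less negative neighbours.

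Outside that run, CYP71B6 was the only CYP71B gene with groups that did not overlap. CYP71B5 differed by 0.40 (SE 0.53), but its control arrays stood at 5.38 and 6.82, farther apart than the groups. CYP71B30P, named as a pseudogene, differed by 0.36 (SE 0.44), and its neighbour CYP71B31, a linalool oxidase, by -0.03 (SE 0.36). CYP71B38 differed by 0.15 (SE 0.46) and CYP71B29 by 0.11 (SE 0.29). CYP71B27, recorded as a transcribed pseudogene, was 1.09 lower in number 1 and 0.31 higher in number 2, with control arrays at 4.73 and 3.54.

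The other 5 P450s belong to 5 subfamilies. CYP78A9, which promotes the growth of floral organs and seeds, read 5.54 and 5.25 in albino and 4.76 and 4.69 in control. Both albino arrays were above, with a difference of 0.67 (SE 0.26) that was 0.78 in number 1 and 0.56 in number 2 (limma adjusted p = 0.846, block 0.234). CYP79A2, which turns phenylalanine into the oxime of benzyl glucosinolate, was dim and differed by 0.38 (SE 0.30). CYP718, CYP84A4 of arabidopyrone synthesis, and CYP51G2, a transcribed pseudogene of the sterol demethylase family, differed by 0.11 (SE 0.28), -0.07 (SE 0.25) and -0.07 (SE 0.47), each with opposite signs in the numbers. The cyclophilins CYP71 and CYP59 differed by 0.27 (SE 0.28) and -0.20 (SE 0.27).

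Signal strength separated the measured members of the families. By mean over the 4 arrays 10 of the 24 P450s lay in the dimmest 25% of all probe sets and 6 in the brighter 50%, while 9 of the 47 UGTs lay in the dimmest 25% and 19 in the brighter 50%. Of those 19 brighter UGTs, 12 were lower in both numbers and 5 higher, with a median of -0.17, and both albino arrays were below both controls for 10 of them. Over the brighter 50% of all probe sets, 34.6% were lower in both numbers, 36.2% were higher in both, and 18.2% had both albino arrays below. The 28 dimmer UGTs had a median of -0.03, with 9 lower and 7 higher in both numbers. Of the 18 dimmer P450s, 10 (55.6%) were higher in both numbers and 1 (5.56%) lower, against 34.6% and 28.5% of all probe sets. Shares over the dimmer 50% of all probe sets alone are not given here. The 6 brighter P450s had 2 higher and 2 lower, with medians of 0.40 in number 1 and -0.09 in number 2. This split was made after the values were seen.

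By known role, the measured UGTs for foreign compounds and stress were the most one-sided of the UGT lists with several measured genes. The lists were chosen with earlier results of these data known. Over all probe sets 28.5% were lower and 34.6% higher in both numbers. The 5 measured of 7 listed (UGT87A2, GT72B1, UGT73B1, UGT73B4 and UGT73C7) were all lower in both numbers, with a median of -0.54. GT72B1 is listed by its alias and is not a member by the symbol rule. Limma unadjusted p was 0.00264 for UGT87A2, 0.0126 for GT72B1, 0.0760 for UGT73B4, 0.100 for UGT73B1 and 0.309 for UGT73C7. None passed over all probe sets. The 4 measured salicylate and pathogen response genes had a median of -0.40, with 2 lower and 1 higher in both numbers. The 3 cytokinin genes had a median of 0.30, with 2 higher in both. Medians were 0.10 for 6 monolignol and sinapate genes, -0.06 for 5 flavonoid and anthocyanin genes, 0.03 for 2 auxin genes and -0.13 for 3 abscisic acid and brassinosteroid genes. Listed P450s of brassinosteroid, abscisic acid, gibberellin, cytokinin, jasmonate, cutin, phenylpropanoid, carotenoid and sterol metabolism had 0 single-gene probe sets by symbol and are not analysed here.

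Genes that work beside these enzymes were measured in part. Of the glucosinolate and camalexin list, 4 of 30 symbols were measured, with a median of -0.57. All 4 were lower in both numbers, against 28.5% of all probe sets. BCAT4, which starts methionine chain elongation, differed by -0.77 (SE 0.26; limma adjusted p = 0.780), with -0.83 in number 1 and -0.70 in number 2. AOP3 of side-chain modification differed by -1.29 (SE 0.53; -1.77 and -0.82 in the numbers) and GSTU20 by -0.37 (SE 0.25). AOP1 differed by -0.12 (SE 0.47), its groups overlapping. The measured phenylpropanoid and flavonoid genes were HCT of lignin synthesis, at -0.65 (SE 0.27; -0.84 in number 1 and -0.47 in number 2), DFR at -0.03 (SE 0.35) and BAN at 0.25 (SE 0.34). The 13 measured glutathione transferases, which conjugate many of the same foreign compounds as UGTs, had a median of -0.05. Of these, 8 were lower and 2 higher in both numbers, against 28.5% and 34.6% of all probe sets. GSTU27 had the largest of these differences, -1.50 (SE 0.54; limma adjusted p = 0.795), with -2.15 in number 1 and -0.85 in number 2. The wax synthase gene WSD1 differed by 0.13 (SE 0.30). None of these passed.

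On the same arrays PYK10, a root marker, had a difference of -1.48 (SE 0.47), which was -2.29 in number 1 and -0.67 in number 2, against 0.21 (SE 0.25) for the leaf gene RCA. The 2 other measured root markers of 14 listed symbols, EXPA7 and EXPA18, gave differences of -0.28 (SE 0.35) and 0.22 (SE 0.27), and the meristem gene CLV3 by -0.20 (SE 0.54). The part of organ composition in the UGT and P450 differences was not tested. In whole tissue, fewer cells of a type and less RNA per cell cannot be told apart.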

How the data were processed

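Each of the 4 arrays has log2 values per probe set as deposited by the authors, made with RMA per the submitters' processing notes. The sources used here give neither its version nor which arrays were normalized together. RMA compresses differences of dim probe sets. Per the labels' protocols, cDNA came from 16 µg of total RNA and 30 µg of labelled cRNA was hybridized. Groups are from the sample titles, which do not say that replicates were separate pools of plants, so a p-value covers array-to-array spread alone, possibly technical.

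The test was two-sided, with lmFit and eBayes of limma 3.58.1 (R 4.3.3), on every one of 22746 probe sets, calling a Benjamini-Hochberg adjusted p under 0.05. The script was tested on simulated data. There were 2 residual degrees of freedom, or 1 with the replicate block. The number of arrays limits the precision. Members, lists and tests were chosen with earlier results of these data known. Symbols were those of the platform annotation. All 73 had the same symbol in TAIR10.1, which was used only for names, aliases, chromosomes and gene order. Genes in a run are at most 10 genes apart. List symbols were matched by symbol or alias, leaving out 2 homonyms, a chitinase recorded as CHI and an mRNA export factor with the alias HPR1. Genes named first were all CYP71B members, UGT73B5, up to 8 members per direction and family with the largest difference among those with groups that did not overlap, the largest difference of each subfamily of at least 3 and of each role list, the smallest p of each partner list, and the markers. The rest complete the measured members.

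Alternatives were quantile normalization of all 4 arrays, centring on the brighter 50%, a filter that dropped the dimmest 25% or 50%, cyclic loess, no moderation of variances, a prior both robust and trended, the replicate block, each array left out, dropping IDs marked for cross-hybridization, current symbols, and 1.5-fold in place of 2-fold.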

Additional observations from a re-analysis of the deposited data

How the results depend on the processing

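No member was called in any alternative fit, while over all probe sets limma called 182 without albino replicate 2 and 1 without variance moderation. Leaving out 1 array at a time leaves a lone array that is assumed to vary like the other group. That lone array is set against arrays of both numbers, so any gap between the numbers enters the difference. The P450 median lay between 0.022 (without control replicate 2) and 0.23 (without control replicate 1) on leaving out single arrays, and between 0.10 and 0.16 under the others. The UGT median lay between -0.17 and -0.0068 on leaving out single arrays, and between -0.17 and -0.064 under the others, so both medians kept their sign. P450s with a positive difference numbered 13 to 19 of 24 in fits that kept all 24. In the main fit they were 17 (70.8%), against 53.3% of all probe sets, and 13 of 24 is close to that share. Without the dimmest 25% they were 9 of 14 (64.3%), against 52.6% of all probe sets. In that fit 4 of the 14 had both albino arrays above both controls, against 17.4% of all probe sets. At 1.5-fold in both numbers, 1 member was higher and 6 lower, against 0 and 2 at 2-fold. The share of all probe sets at 1.5-fold is not given here, so the 1.5-fold counts cannot be set against it.

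Any gap between the numbers enters each fit without an array, and its part in the sign changes was not tested. Of 50 named genes, 16 took the opposite sign in at least 1 such fit. Their lowest and highest differences in those fits were CYP71B28 (-0.018 to 0.11), CYP71B16 (-0.31 to 0.54), CYP71B38 (-0.33 to 0.64), CYP71B30P (-0.16 to 0.89), UGT73C2 (-0.013 to 1.23), CYP71B29 (-0.12 to 0.33), CYP71B24 (-0.60 to 0.040), CYP71B31 (-0.38 to 0.32), CLV3 (-0.96 to 0.56), CYP71B27 (-0.99 to 0.20), CYP71B5 (-0.33 to 1.12), UGT71C2 (-0.81 to 0.34), WSD1 (-0.17 to 0.43), EXPA7 (-0.71 to 0.15), CYP71B25 (-0.063 to 0.24), UGT71B6 (-0.61 to 0.017). GSTU27 alone among the named genes passed in such a fit, at -2.29 without albino replicate 2. Leaving out dim probe sets left 1 gene in some subfamilies, so that the value is that gene's own. Without the dimmest 50% these were UGT76E (-1.07), UGT84A (-1.30) and UGT78D (-0.11), and without the dimmest 25% UGT73C (-0.47).

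With the replicate block 0 members passed, as without it. Deviations of the arrays from their group means correlated at 0.662 between albino and control arrays of the same number. No label ties a number to its own plate or day, although same-numbered arrays also share a value distribution, and whether they share a batch is not known. Signals carry no measure of background, so what was detected in dim genes is unknown.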
